A study of Mus musculus with 1920 samples.

Results

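The genes described here are 9 transcription factors of microglia, the macrophages that reside in brain and spinal cord: Sall1, Maf, Spi1, Irf8, Mef2a, Mef2c, Runx1, Mitf and Bhlhe40. They were taken by symbol from the 48709 gene entries of the count table, and each of the 9 lay at the same GRCm38 position in that table and in the GENCODE annotation. Single cells from CD1 mice aged 16 weeks had been stained with antibodies to CD11b, CD45, Ly6C, Ly6G and CD206 and sorted by flow cytometry. Each cell gave 1 Smart-seq2 library, which covers whole transcripts and carries no molecular identifiers, so a count is a read and not a molecule. Each of the 10 groups held 4 labelled replicates, called mice here, while the series' design text gives 3 to 4 mice. Untreated cells came from 6 places (spinal cord, corpus callosum, facial nucleus, cerebellum, hippocampus and cortex), and the series' design text says that these regions came from the same animals. Of the injured groups, 2 were facial nucleus taken 3 and 14 days after facial nerve axotomy, in which the nerve is cut outside the brain and the motor neurons' cell bodies lie in the nucleus. The tissue label of these wells reads facial nerve and their source label reads facial nucleus. The other 2 were corpus callosum at the demyelination and the remyelination stage of cuprizone, a copper chelator that kills oligodendrocytes; the sources used here do not give its dose or duration. No group carries a transgene according to the labels, and none is said to be pooled.

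In macrophages, Spi1 encodes PU.1, which opens enhancers across the genome and is needed for the lineage to form. Irf8 encodes a partner that binds composite sites together with PU.1, and Runx1 encodes a core binding factor of blood development. Sall1, a zinc finger factor, and Maf, Mef2a and Mef2c are placed on top of this base in microglia, where transforming growth factor beta signalling and contact with the brain maintain them. Mitf belongs to the family that drives lysosomal genes, and Bhlhe40 encodes a basic helix-loop-helix repressor that is known from activated immune cells and from the clock.

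RefSeq promoter windows of GRCm38.p6 covered 6 of the 9 genes (14 windows); Maf, Spi1 and Bhlhe40 were not among them. The 250 bases before the first start of Sall1 and of Mitf are printed because Sall1 passed the test in demyelination below and Mitf fell just short of it. The Sall1 window is chr8:89044163-89044412 on the minus strand and the Mitf window chr6:97806808-97807057 on the plus strand, each written 5′ to 3′ with motif matches in capitals.
Sall1: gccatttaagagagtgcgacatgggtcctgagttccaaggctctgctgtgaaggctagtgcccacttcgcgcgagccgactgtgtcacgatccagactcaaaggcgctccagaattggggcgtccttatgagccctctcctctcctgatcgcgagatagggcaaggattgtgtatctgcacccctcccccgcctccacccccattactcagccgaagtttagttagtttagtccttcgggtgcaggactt
Mitf: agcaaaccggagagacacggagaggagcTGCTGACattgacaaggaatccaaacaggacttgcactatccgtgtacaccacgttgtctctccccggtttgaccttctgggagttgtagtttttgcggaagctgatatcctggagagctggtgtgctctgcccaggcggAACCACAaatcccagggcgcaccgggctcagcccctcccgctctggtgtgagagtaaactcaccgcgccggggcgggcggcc
Letters were searched on both strands, and matches of different motifs could overlap. The motifs were GAGGAAGT (PU.1), GGAAGTGAA (PU.1 with an interferon regulatory factor), CTATTTATA (MEF2), TGTGGTT (RUNX), CACGTG (the E-box of MITF and BHLHE40) and TGCTGAC (MAF). The Mitf window holds a RUNX match 82 bases and a MAF match 222 bases before the start, while the Sall1 window holds none of these letters. In 32851 windows of the same length, 4.40% held the RUNX letters and 3.81% the MAF letters, against 2.44% for PU.1, 0.493% for the composite, 0.387% for MEF2 and 6.02% for the E-box. A second Mitf window held a MAF match and 1 Runx1 window an E-box match, so that 3 of the 14 windows held any. A match is a stretch of letters and says nothing of binding in these cells.

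After filtering, 1644 of 1900 cells remained, between 129 (remyelination) and 181 (cerebellum) in a group. Counts were summed over the cells of each mouse, giving 40 sums of 5298853 to 19964472 counts, and levels are CPM, the gene's counts relative to all counts of the sum, after TMM scaling, a correction for library composition, across all 40. A sum mixes cells, so fewer cells with a transcript and fewer transcripts in each cell cannot be told apart from the sum alone. Each plate carried 2 groups: axotomy and cuprizone cells sat on other plates than their untreated regions, so plate and treatment cannot be told apart. Untreated regions were paired on plates as cortex with hippocampus, cerebellum with facial nucleus and spinal cord with corpus callosum. Between regions of different pairs, region and plate cannot be told apart either. All 12 microglia markers had reads in every group, with summed levels of 33076 to 70419 CPM by mouse.

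In untreated microglia, 8 of the 9 factors had reads in all 6 regions and Bhlhe40 was close to 0. Of the 8, Mitf was the lowest, with a median of 29.6 CPM over the untreated sums and a lowest mouse at 3.82. Per kilobase of exon, the median over the 24 untreated sums was highest for Spi1 (124 CPM per kb), then Sall1 (97.8), Irf8 (86.8), Mef2a (56.7), Mef2c (47.9), Maf (36.4), Runx1 (9.74), Mitf (4.79) and Bhlhe40 (0.0400). This order is of levels on a per-length scale; all values that follow are CPM without length correction and compare a gene with itself. The 6 regions were tested together with edgeR's quasi-likelihood test over 22907 genes. Of the 9 factors, 0 passed an adjusted p of 0.05, where 0.1% of all genes did. At an unadjusted p under 0.05 there was 1 factor, Maf (p = 0.0135, edgeR adjusted p = 0.405), and DESeq2 called 0. Because the regions share mice, the test was repeated with the replicate number as a block, as if the number named the mouse; 0 of 9 factors and 39 of all genes then passed, beside 23 without the block. With the regions compared in pairs on the same plate, edgeR again called 0 of 9 in cortex against hippocampus (0.0% of all genes), cerebellum against facial nucleus (0.00437%) and spinal cord against corpus callosum (0.0%). DESeq2 called 1 in the first of these, Bhlhe40, and 0 in the other 2. At an unadjusted p under 0.05 edgeR had 1, 0 and 0 factors there, the 1 again being Bhlhe40, for which hippocampus held 0 reads. All 54 Bhlhe40 reads of cortex came from 1 cell, so this difference rests on that cell.

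Of the lineage factors, Spi1 and Irf8 had regional means within 1.33-fold of each other. Spi1 was read at 361 ± 21.8 in cortex, 333 ± 63.0 in hippocampus, 290.4 ± 45.7 in cerebellum, 288 ± 72.7 in facial nucleus, 353 ± 99.3 in corpus callosum and 277 ± 78.3 in spinal cord (mean ± SD in CPM, n = 4 mice, as in all levels below). The ranges of the mice overlapped between every pair of neighbours in the order of the groups. After axotomy, Spi1 stood at 291 ± 50.1 on day 3 and 279 ± 76.5 on day 14. In the cuprizone groups it stood at 501 ± 111 in demyelination and 441 ± 115 in remyelination, with single mice from 301 to 589, and the 4 mice of each overlapped those of untreated corpus callosum (205 to 413).

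Irf8, the partner of PU.1, was read at 640.4 ± 156 in cortex, 604 ± 129 in hippocampus, 568 ± 99.1 in cerebellum, 533 ± 69.8 in facial nucleus, 709 ± 142 in corpus callosum and 646 ± 90.7 in spinal cord. On day 3 after axotomy it was 565 ± 121 and on day 14 389 ± 101, the lowest mean of the 10 groups. The mice of day 14 overlapped those of day 3 and of untreated facial nucleus, and the fall from day 3 to day 14 (log2 fold change -0.53 ± 0.25, SE) had an edgeR adjusted p of 0.738. The highest mean was in demyelination, where the mice read 1090.2, 937, 949.9 and 1027, all above the 737, 613, 897 and 587 of untreated corpus callosum. That difference had a log2 fold change of 0.42 ± 0.22 (SE) and did not pass the test (edgeR adjusted p = 0.302). Remyelination stood at 959 ± 234, with mice from 643 to 1198 that overlapped the untreated ones.

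Runx1 was the lowest of the lineage factors. Its level was 123 ± 20.3 in cortex, 106 ± 10.2 in hippocampus, 131 ± 66.6 in cerebellum, 165 ± 91.7 in facial nucleus, 130.0 ± 23.0 in corpus callosum and 101 ± 51.9 in spinal cord. Facial nucleus 3 days after axotomy had the highest mean, 221 ± 128, from mice at 264, 206, 54.2 and 358; the third mouse was below all 4 untreated facial nucleus mice and the fourth above them. Runx1 stood at 121 ± 41.3 on day 14, 120.3 ± 20.8 in demyelination and 155 ± 65.6 in remyelination. Every pair of neighbouring groups overlapped.

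**Figure D1:**
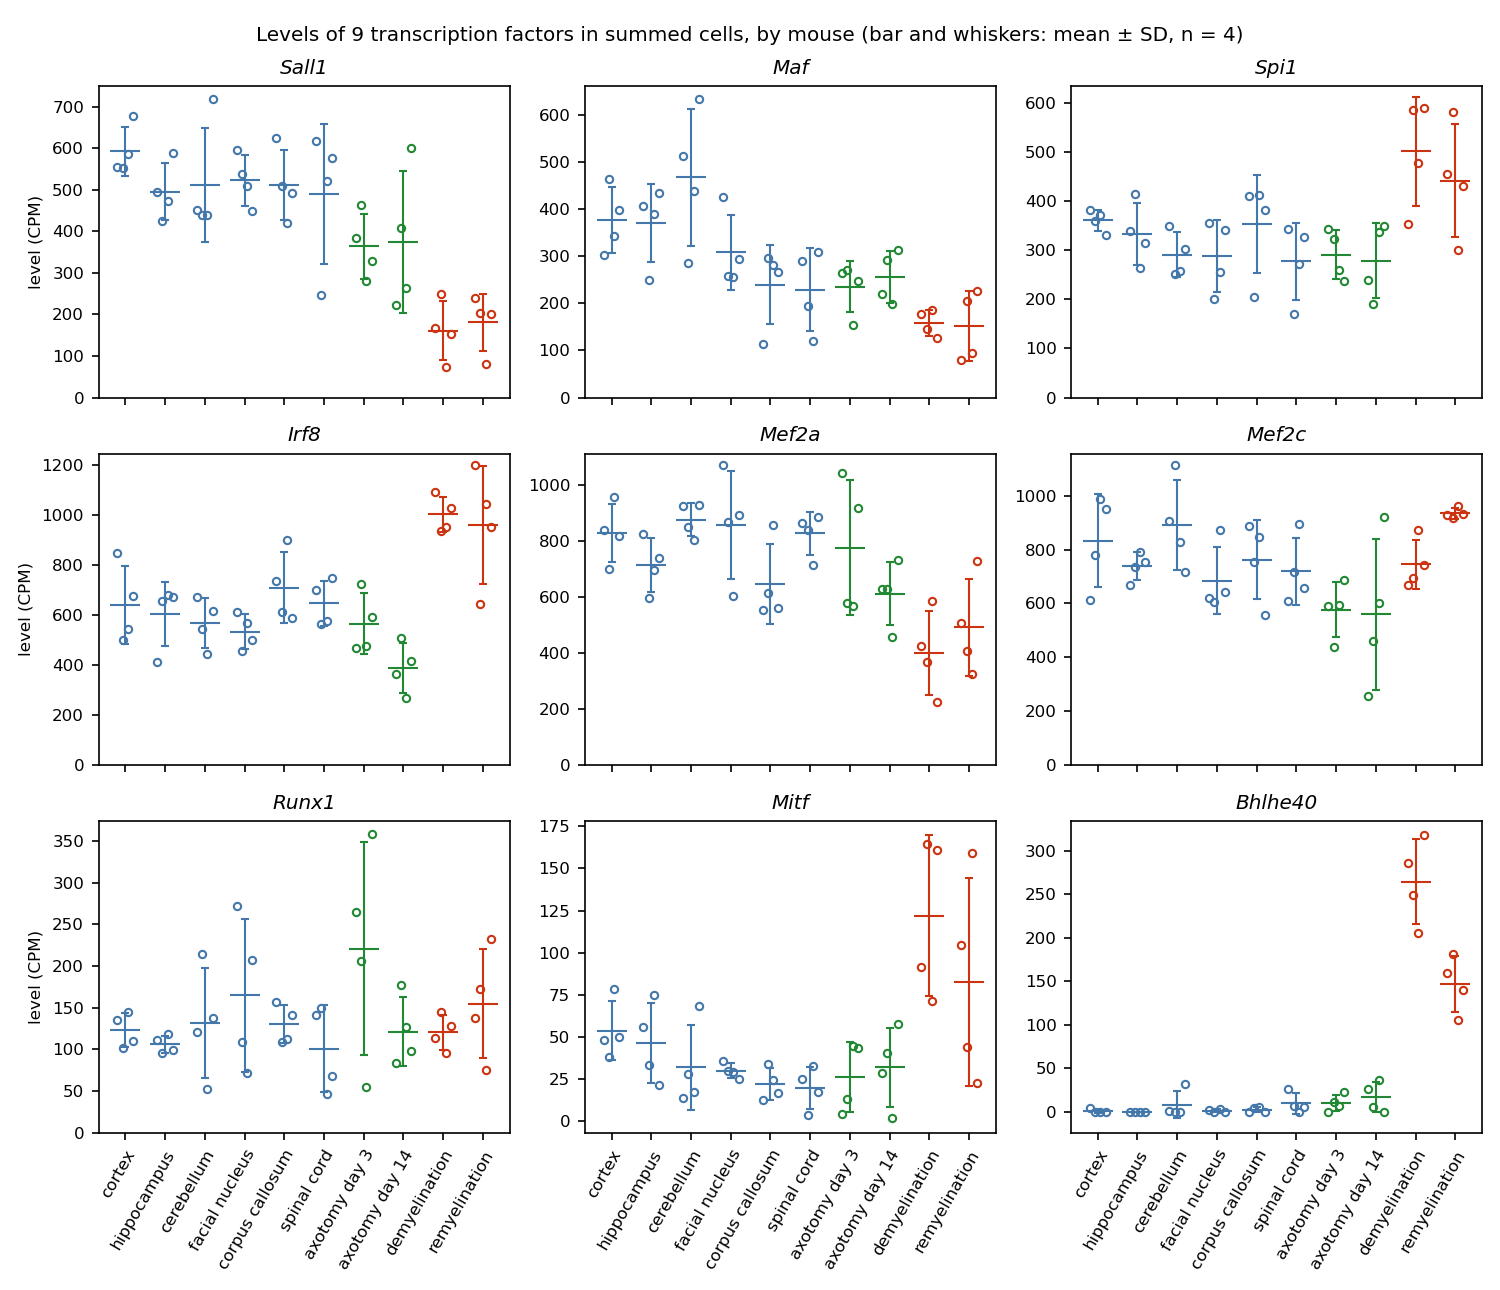
Level in CPM (vertical axis, linear, own scale for each gene) of the 9 factors in the 10 groups (horizontal axis). Each circle is the summed cells of 1 mouse, and the bar and whiskers are the mean ± SD of 4 mice, blue for untreated regions, green for axotomy and red for cuprizone. The red circles of Sall1 lie at 74.1 to 249 CPM and those of Bhlhe40 at 105 to 318 CPM, apart from the untreated corpus callosum mice.

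Among the factors that mark microglia within the macrophage lineage, Sall1 fell in demyelination. In untreated tissue it was read at 592 ± 58.7 in cortex, 495 ± 68.7 in hippocampus, 511 ± 138 in cerebellum, 522 ± 60.7 in facial nucleus, 511 ± 84.6 in corpus callosum and 489.7 ± 167 in spinal cord. The 4 mice of untreated corpus callosum read 624, 509.6, 419.7 and 492 CPM. In demyelination they read 167, 249, 74.1 and 153, and in remyelination 238, 203, 80.0 and 201. All 8 cuprizone mice were below all 4 untreated corpus callosum mice, and the lowest untreated mouse of any region, a spinal cord mouse at 246, was the only one within the cuprizone range. Sall1 was lower in demyelination by a log2 fold change of -1.75 ± 0.40 (SE), 3.37-fold lower, and passed edgeR's test (adjusted p = 0.0199). In remyelination the log2 fold change was -1.51 ± 0.40 and just missed it (edgeR adjusted p = 0.0510). The demyelination call was lost when 1 of 6 of the 8 mice was left out: corpus callosum mouse 1, 2 or 4, or demyelination mouse 1, 3 or 4 (adjusted p up to 0.0703, log2 fold change -2.02 to -1.48 over all 8 omissions). After axotomy Sall1 read 384, 462, 280.0 and 328 on day 3 and 223, 408, 263 and 599.5 on day 14, against 595, 537, 509 and 449 in untreated facial nucleus. The groups overlapped, and the log2 fold changes of -0.50 ± 0.29 and -0.47 ± 0.29 did not pass (edgeR adjusted p = 0.769 and 1.00). Whether the demyelination effect differed from the day 3 effect was tested itself: the difference of log2 fold changes was -1.21 ± 0.44 (edgeR adjusted p = 0.107).

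Maf, a leucine zipper factor, had the widest spread among regions of the abundant factors. Its highest regional mean, in cerebellum, was 2.05-fold above its lowest, in spinal cord, which sat on another plate. Maf was read at 378 ± 70.1 in cortex, 371 ± 83.1 in hippocampus, 469 ± 146 in cerebellum, 309 ± 80.3 in facial nucleus, 239.9 ± 84.3 in corpus callosum and 229 ± 88.2 in spinal cord. Corpus callosum mouse 1 stood at 115, well below the other 3 mice of that group (267 to 296). The level was 235 ± 54.2 and 256 ± 55.6 on days 3 and 14 after axotomy. It was 159 ± 27.6 in demyelination and 152 ± 74.5 in remyelination, the lowest means of the 10 groups. The demyelination mice (177, 146, 186 and 127) overlapped the untreated ones because of that 1 mouse, and the log2 fold change of -0.68 ± 0.42 did not pass (edgeR adjusted p = 0.423).

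The MEF2 factors bind the same sequence and are given in turn. Mef2a was read at 829 ± 105 in cortex, 715 ± 94.7 in hippocampus, 877 ± 60.4 in cerebellum, 859 ± 192 in facial nucleus, 648 ± 143 in corpus callosum and 828 ± 76.6 in spinal cord. It stood at 776 ± 241 and 612 ± 113 on days 3 and 14 after axotomy. In demyelination the mice read 425, 367.04, 587 and 226, against 556, 616, 859 and 560.1 in untreated corpus callosum, so that 1 demyelination mouse reached into the untreated range. The log2 fold change of -0.76 ± 0.31 did not pass (edgeR adjusted p = 0.162). Remyelination stood at 492 ± 174.

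Mef2c was read at 833 ± 174 in cortex, 738 ± 51.3 in hippocampus, 891 ± 168 in cerebellum, 684 ± 125 in facial nucleus, 761 ± 147 in corpus callosum and 719 ± 125 in spinal cord. Its level after axotomy was 577 ± 103 on day 3 and 559.6 ± 279.6 on day 14, where the mice ran from 257 to 921. In demyelination it was 745 ± 90.1, close to untreated corpus callosum (log2 fold change -0.11 ± 0.20). In remyelination the mice read 927, 916, 962 and 933, all above the untreated and the demyelination mice. The log2 fold change of remyelination against corpus callosum was 0.29 ± 0.20 (edgeR adjusted p = 0.516) and against demyelination 0.39 ± 0.20 (edgeR adjusted p = 0.403), so neither passed. The MEF2 genes were compared with their controls and not with each other, and a difference between their changes was not tested.

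Mitf, of the family that drives lysosomal genes, was low in untreated cells and had higher means in the cuprizone groups, neither past edgeR's threshold. It was read at 53.8 ± 17.5 in cortex, 46.6 ± 23.6 in hippocampus, 32.0 ± 25.01 in cerebellum, 30.0 ± 4.45 in facial nucleus, 22.0 ± 9.53 in corpus callosum and 19.9 ± 12.5 in spinal cord. Axotomy left it at 26.5 ± 20.7 on day 3 and 32.2 ± 23.4 on day 14. The untreated corpus callosum mice read 12.5, 34.1, 24.7 and 16.6, the demyelination mice 91.3, 164, 71.5 and 161 and the remyelination mice 105, 44.3, 159 and 22.9. Demyelination lay wholly above the untreated mice, while 1 remyelination mouse lay among them. The log2 fold change of 2.39 ± 0.68 (SE) in demyelination fell just short (edgeR adjusted p = 0.0525), and was past the threshold in 3 of 21 alternatives: DESeq2 (adjusted p = 0.00866), edgeR on these 2 groups alone (0.0185) and a stricter cell filter (0.0481). The other 18 did not pass (adjusted p = 0.0529 to 0.607), among them each of the 8 fits with 1 mouse left out (edgeR adjusted p = 0.0862 to 0.121). In remyelination it was 1.90 ± 0.67 (edgeR adjusted p = 0.116). The cell with the most Mitf reads held 14.1% of them in untreated corpus callosum, 16.7% in demyelination and 30.5% in remyelination.

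Bhlhe40, the repressor, had the largest fold changes of the 9 in both cuprizone comparisons with untreated tissue. In untreated tissue it had 0 reads in all 4 hippocampus mice and 0.984 ± 1.97 CPM in cortex, 8.17 ± 15.6 in cerebellum, 1.5038 ± 1.76 in facial nucleus, 2.61 ± 2.88 in corpus callosum and 9.66 ± 11.7 in spinal cord. The corpus callosum mice read 0, 4.44, 5.68 and 0.302. The demyelination mice read 286, 249, 205 and 318 and the remyelination mice 159.6, 181, 105 and 139.6. All 8 cuprizone mice were far above every untreated mouse of any region, of which the highest, a cerebellum mouse, was at 31.5. Bhlhe40 rose in demyelination by a log2 fold change of 6.60 ± 1.06 (SE; edgeR adjusted p = 0.00122) and in remyelination by 5.82 ± 1.02 (edgeR adjusted p = 0.00305). Both calls held with each mouse left out, with adjusted p up to 0.00456 and 0.01103. They were lost when all 10 groups shared one fit (adjusted p = 0.0683 and 0.105). Remyelination lay below demyelination in every mouse, but the log2 fold change of -0.78 ± 0.83 did not pass (edgeR adjusted p = 0.803). After axotomy the mice read 0.301, 10.975, 6.39 and 23.1 on day 3 and 26.5, 5.07, 36.4 and 0.168 on day 14, against 1.73, 0.183, 3.91 and 0.193 in untreated facial nucleus. Those groups overlapped, and neither log2 fold change (2.76 ± 1.60 and 3.53 ± 1.66) passed edgeR's test (adjusted p = 0.777 and 0.858).

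Counted together, 2 of the 9 factors were called in demyelination against untreated corpus callosum, where 5.16% of 14057 tested genes were. The 1 higher was Bhlhe40 (3.08% of genes were called higher) and the 1 lower was Sall1 (2.08%). Mice did not overlap for 4 of the 9: Irf8, Mitf and Bhlhe40 higher (9.28% of all genes) and Sall1 lower (14.1%). In remyelination 1 of 9 was called, Bhlhe40, against 3.12% of all genes. There the mice did not overlap for Mef2c and Bhlhe40, higher (5.56% of all genes), and for Sall1, lower (12.1%). The 2 comparisons share the untreated mice. Between remyelination and demyelination 0 of 9 were called by edgeR (0.0427% of all genes), with 0 at an unadjusted p under 0.05 and 0 by DESeq2. Mice of these stages did not overlap for Mef2c, higher in remyelination (1.35% of all genes), and Bhlhe40, lower (2.92%). The median log2 fold change of the 9 was -0.11 in demyelination and 0.29 in remyelination, beside -0.33 and -0.31 over all tested genes.

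After axotomy 0 of 9 factors were called on day 3, where 0.145% of 19319 tested genes were, and 0 of 9 on day 14 (0.0%) or between the days (0.0259%). At an unadjusted p under 0.05 edgeR had 0, 1 (Bhlhe40) and 1 (Irf8), and DESeq2 called 0 in each of these comparisons. No factor's mice were free of overlap in any of the 3, where 5.1%, 3.88% and 4.58% of all genes were. The median log2 fold change was -0.12 on day 3 and -0.27 on day 14, beside 0.04 and 0.11 over all genes. The difference between the demyelination and the day 3 effect was past the threshold for 0 of 9 factors (0.423% of 26684 genes), with 2 at an unadjusted p under 0.05 (Sall1 and Mitf) and 1 called by DESeq2 (Sall1).

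**Figure D2:**
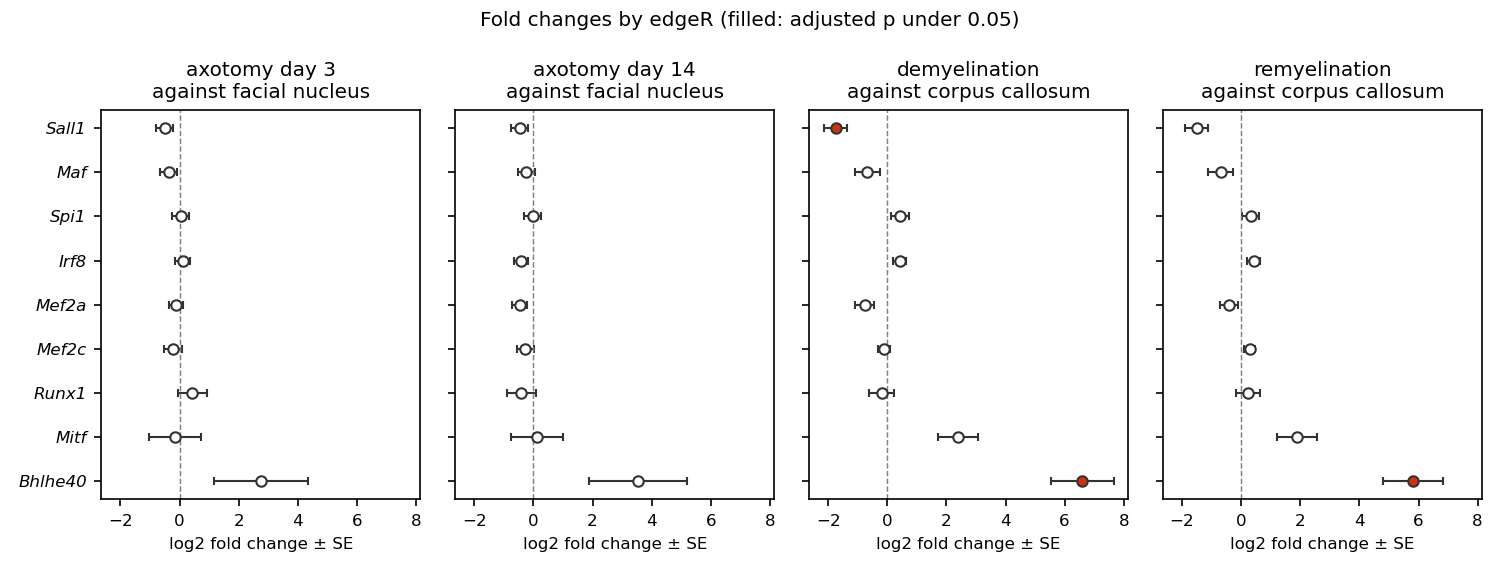
Log2 fold change ± SE by edgeR (horizontal axis) of each factor (vertical axis) for each injured group set against its untreated region, 4 mice against 4. Filled circles passed an adjusted p of 0.05: Sall1 at -1.75 and Bhlhe40 at 6.60 in demyelination, and Bhlhe40 at 5.82 in remyelination.

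Some markers of other cells moved with the cuprizone groups. Of 8 monocyte markers, 5 had reads in demyelination, and their summed level was 578 to 2176 CPM by mouse, beside 14.04 to 172 in untreated corpus callosum and 0.989 to 317 in remyelination. Nearly all of it was Fn1 (1242 CPM), while Ly6c2, Chil3 and Ifitm6 were at 0. Of 8 border macrophage markers, 6 had reads in remyelination, summing to 208 to 440 CPM beside 6.17 to 27.7 in untreated corpus callosum; Ms4a7 made up 219.6 and Cd163 and Lyve1 were at 0. Cells with 10 CPM or more of any marker from these lists were then left out, a step chosen after these levels were seen, which left 70 of 161 demyelination, 79 of 129 remyelination and 97 of 173 corpus callosum cells. The same factors were called: Bhlhe40 and Sall1 in demyelination (edgeR adjusted p = 0.000518 and 0.0421) and Bhlhe40 in remyelination (0.000770). Sall1 was then at a log2 fold change of -2.79 in demyelination. Over the comparisons, 19 of 90 log2 fold changes of the factors turned sign at this step, 0 of them with a call. Cycling markers summed to 212 to 714 CPM in demyelination and 297 to 876 on day 3 after axotomy, beside 26.5 to 246 in untreated corpus callosum and 6.84 to 168 in facial nucleus. Of 6 endothelial markers, the summed level was 534 to 787 CPM in untreated corpus callosum, 1519 to 1966 in demyelination and 900.5 to 1543 in remyelination, so that all 8 cuprizone mice were above the untreated ones; most of it was Bsg (630 CPM in untreated tissue, 1539 and 1008 in the cuprizone groups), and Ly6a and Cdh5 were at 0 in remyelination. Neuron markers were lower, at 25.9 to 239 CPM in untreated corpus callosum, 0 to 15.7 in demyelination and 0.601 to 11.7 in remyelination. Oligodendrocyte markers overlapped, at 94.3 to 388, 167 to 674 and 105 to 1733 CPM, with Mbp called higher in remyelination (edgeR adjusted p = 0.0499). The part of cycling, endothelial, neuron and oligodendrocyte markers in the results was not tested.

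Within single cells the factors were read in very different shares. To compare cells of unequal depth, each was thinned to 20000 counts, and the share of cells with at least 1 read was averaged over mice. In untreated regions Mef2a was read in 82.2% to 88.7% of cells by region, Mef2c in 77.4% to 84.3%, Irf8 in 67.3% to 83.2%, Sall1 in 73.4% to 83.3%, Spi1 in 64.2% to 75.8% and Maf in 58.8% to 79.4%. Runx1 followed with 33.6% to 39.9%, Mitf with 10.7% to 18.1% and Bhlhe40 with 0% to 3.14%. In hippocampus 0 of 154 cells had a Bhlhe40 read. In the 20 wells labelled negative, at a median of 524.5 counts, Mef2c was read in 8, Irf8 in 7, Mef2a in 4, Sall1, Maf and Mitf in 2 each, Spi1 in 1 and Runx1 and Bhlhe40 in 0, so a read of these 7 genes can occur in a well without a cell.

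On average, fewer cuprizone cells had a read of Sall1, Maf, Mef2a, Mef2c and Runx1, and more had one of Bhlhe40. Spi1 and Irf8 were also read in fewer remyelination cells. The Sall1 share was 75.4% in untreated corpus callosum (69.6% to 85.0% by mouse), 28.6% in demyelination (22.0% to 41.3%) and 22.9% in remyelination (12.1% to 41.9%), with no overlap between treated and untreated mice. Without thinning these shares were 88.1%, 38.0% and 29.9%. The thinned shares of Maf, Mef2a and Mef2c also did not overlap at either stage, so this is not particular to Sall1. For how many of all genes the shares do not overlap was not computed. In the cells with a read, the median Sall1 level was 500 CPM in untreated corpus callosum, 200 in demyelination and 400 in remyelination.

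Bhlhe40 was read in 2.82% of untreated corpus callosum cells (0% to 6.52%), 32.8% of demyelination cells (27.8% to 36.8%) and 17.6% of remyelination cells (13.8% to 22.2%). Without thinning the shares were 4.04%, 44.8% and 22.3%. The mouse ranges of the 3 groups did not overlap, and for how many of all genes this holds was not computed. Cells with a Bhlhe40 read were therefore a minority at both stages at this depth.

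The Maf share was 64.1%, 29.5% and 29.1% in untreated corpus callosum, demyelination and remyelination, and the Mef2a share 82.2%, 51.3% and 45.0%. Neither factor was called lower in the sums by the main edgeR test. Mef2c was read in 84.3%, 60.3% and 56.2% of cells although its level in the sums was not lower, so its share is given without reading an order from it; the same holds for Irf8 and Spi1 in remyelination (60.9% and 50.6%, beside 79.6% and 65.9% in untreated corpus callosum). Mitf was read in 12.9%, 19.018% and 13.8% and Runx1 in 40.1%, 25.4% and 25.3%. A cell held 5.07 of the 9 factors on average in untreated corpus callosum, 3.86 in demyelination and 3.21 in remyelination at equal depth. The untreated regions ranged from 4.94 to 5.48, and day 3 and day 14 after axotomy had 4.58 and 4.71. The cells also differed in the number of all genes detected, with medians of 2926 in untreated corpus callosum, 2137 in demyelination and 1517 in remyelination, and in the spike-in share of counts (8.50%, 10.8% and 18.4%). The part of these differences in the shares was not tested.

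**Figure D3:**
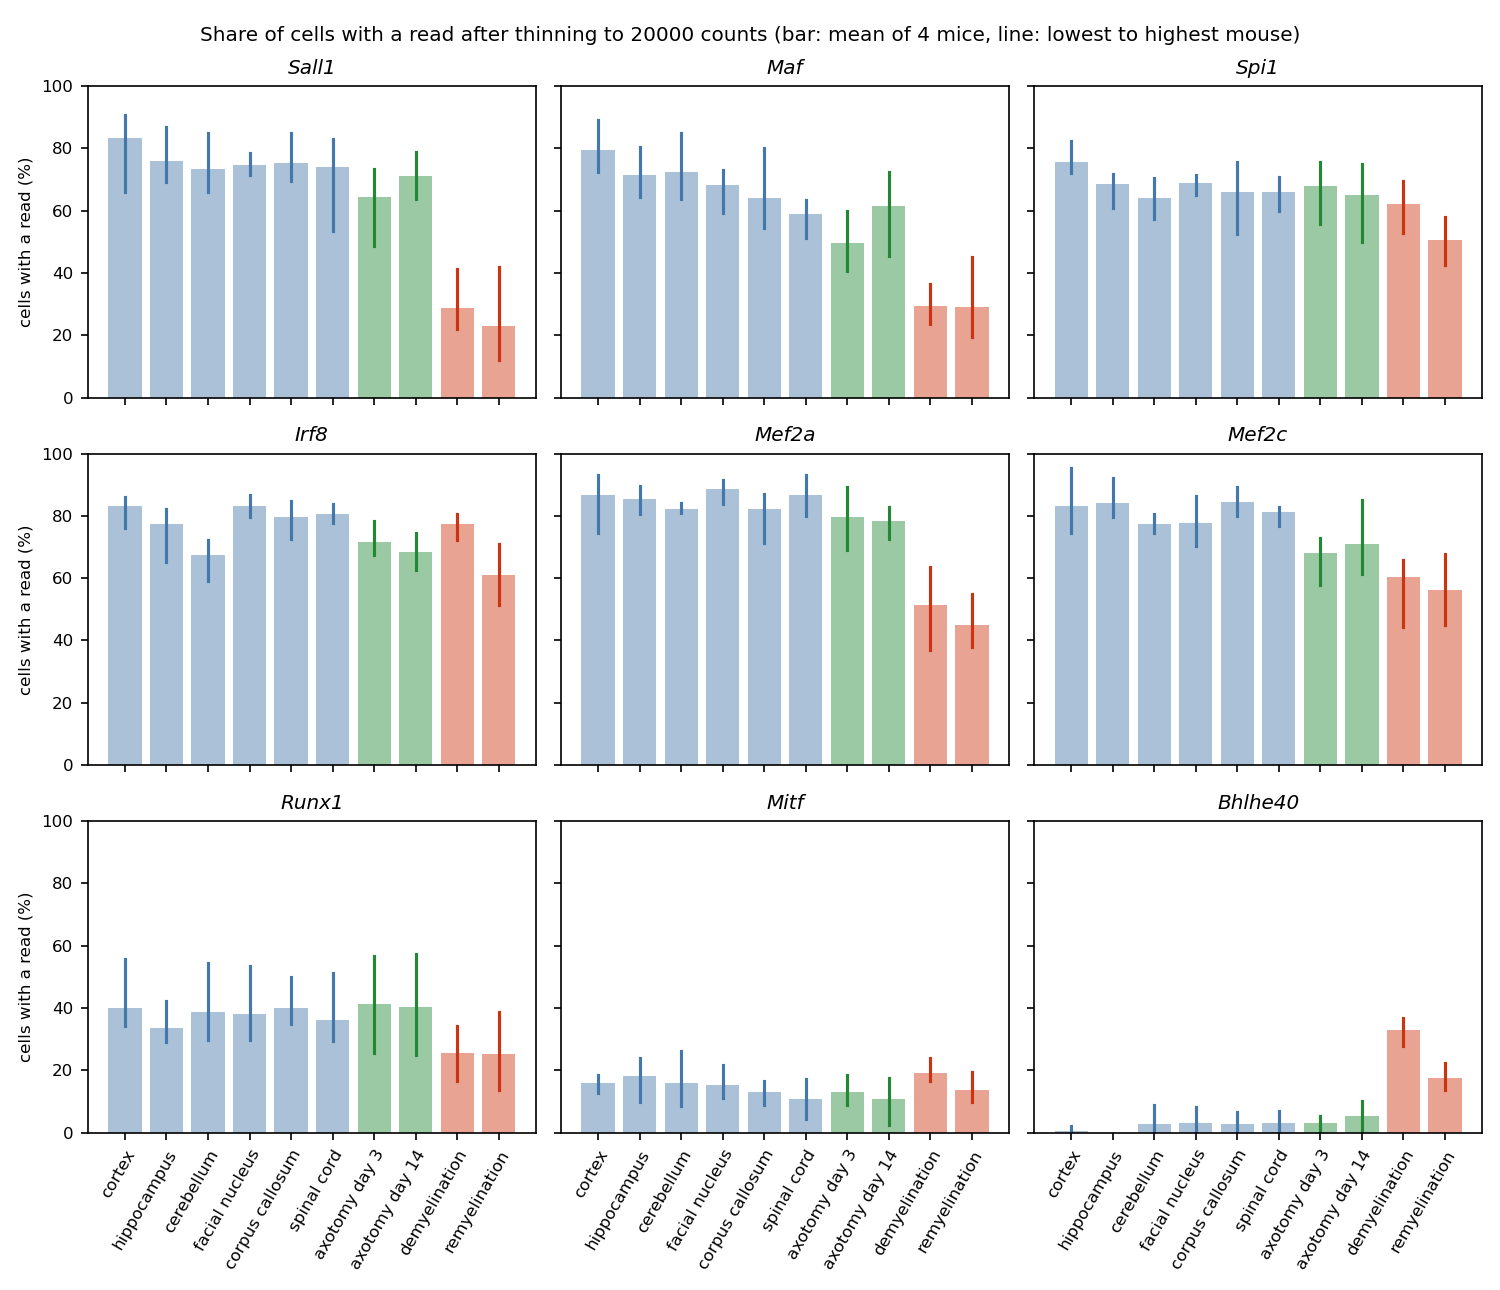
Share of cells with at least 1 read (vertical axis, percent) of each factor after thinning every cell to 20000 counts, for the 10 groups (horizontal axis). Bars are the mean of 4 mice and lines run from the lowest to the highest mouse. The red cuprizone bars are at 28.6% and 22.9% for Sall1 and at 32.8% and 17.6% for Bhlhe40.

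Across single cells the correlations between factors were low in untreated regions and higher for some pairs in injured groups. Of 36 pairs, 36 lay within 0.1 of 0 in untreated cells, 16 in axotomy cells and 11 in cuprizone cells. Counts in a single cell are sparse, so a low value does not show that 2 factors are unrelated. Pearson correlations of log levels, with each mouse's mean removed, are given as descriptions: cells of a mouse share that animal and differ in depth, and 8 of the 9 factors had correlations of 0.15 or more with the number of genes a cell showed. Over the 36 pairs in 1015 untreated cells the median was 0.0320 and the highest 0.09996 (Irf8 with Mef2a), so no pair stood out. In 339 axotomy cells the median was 0.116 and the highest 0.263 (Maf with Mef2c). In 290 cuprizone cells the median was 0.137, and the highest were Maf with Mef2a (0.384) and Mef2a with Mef2c (0.335). Maf and Mef2a were read together in 22.4% of cuprizone cells, where the product of their single shares was 14.3%. In untreated cells these values were 60% and 58.9%. The joint share was above the product for every pair in cuprizone cells, such as 37.2% against 28.7% for Mef2a with Mef2c. An excess is thus not particular to Maf and Mef2a. These shares pool both cuprizone stages and all mice, without removing the mean of each mouse.

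Bhlhe40 and Sall1 changed in opposite directions in the demyelination sums. Over the 40 sums their correlation was -0.763, and over the 32 sums outside the cuprizone groups it was -0.41. Across cuprizone cells it was 0.0462. Both were read in 7.93% of these cells, beside a product of single shares of 6.87%. In sparse counts so weak a correlation is no finding.

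**Figure D4:**
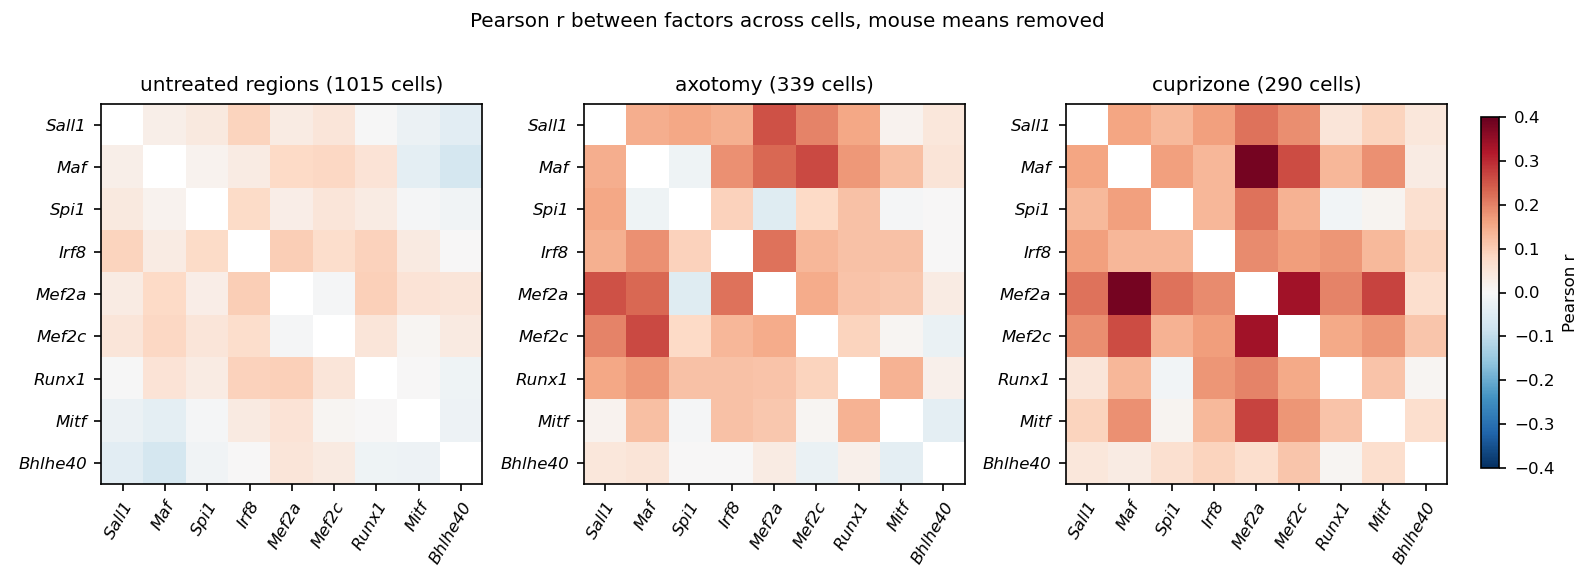
Pearson correlation between each pair of the 9 factors across single cells after removing each mouse's mean (colour, from -0.4 to 0.4), for 1015 untreated, 339 axotomy and 290 cuprizone cells. The diagonal is left blank; the strongest colour is Maf with Mef2a in cuprizone cells, 0.384, while no untreated pair passes 0.09996.

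The genes whose level followed each factor over the 40 sums were taken by Pearson correlation of log levels among 7242 genes of at least 20 CPM, the 3 highest for each. For Sall1 they were Gfm2 (0.869), Selplg (0.865) and Tmem119 (0.856), and for Bhlhe40 they were Lyz2 (0.857), Anxa2 (0.850) and Akr1a1 (0.847). Maf was followed by P2ry13 (0.780), Tgfbr1 (0.757) and Cd33 (0.751), and Mef2a by Macf1 (0.789), Son (0.782) and Rnf167 (0.775). Irf8 had Tpi1 (0.785), Plbd2 (0.782) and Rac1 (0.776), and Spi1 had Capzb (0.776), Bsg (0.719) and Cfl1 (0.704). Values were lower for Mitf (Slc48a1, 0.655) and Runx1 (Nfyb, 0.472). The sums fall into treated and untreated groups, so these values describe which genes share the pattern over the groups.

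Relatives and partners of the 9 were called in both directions. Bhlhe41 and Sall3 moved as Bhlhe40 and Sall1 did. Irf4 and Irf5 fell and Maff rose, opposite in sign to the uncalled changes of Irf8 and Maf. In demyelination against untreated corpus callosum 2 of 20 tested relatives rose and 3 fell. Of all genes 5.16% were called there, 3.08% higher and 2.08% lower. Bhlhe41, the closest relative of Bhlhe40, was already present in untreated cells and rose from 310.2 ± 85.8 to 774 ± 91.4 CPM (log2 fold change 1.24 ± 0.29, SE, edgeR adjusted p = 0.0235). Maff, a small MAF protein, rose from 0 reads to 6.38 ± 6.01 CPM. Sall3, of the Sall1 family, fell from 152 ± 81.4 to 43.3 ± 8.16, and Irf5, of the family of Irf8, from 483 ± 98.2 to 225 ± 71.1. Irf4 fell from 28.1 ± 24.4 CPM to 0 reads at both cuprizone stages. In remyelination, Bhlhe41 (758 ± 264 CPM) and Irf4 were the relatives that passed, where 2.51% of all genes rose and 0.605% fell. Among 39 tested other macrophage transcription factors, 4 rose in demyelination and 0 fell, beside 3.08% and 2.08% of all genes. They were Hif1a, the hypoxia factor (56.9 ± 31.1 to 473 ± 90.1 CPM), Atf3, a stress factor (8.49 ± 10.1 to 185 ± 39.1), Egr1, an immediate early factor (0.922 ± 0.887 to 67.0 ± 48.2), and Stat3, which carries cytokine signals (97.3 ± 32.1 to 259.6 ± 60.03). The first 3 also rose in remyelination, beside 2.51% of all genes.

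Among 11 tested receptors and ligands upstream of the factors, calls in demyelination stood beside 3.08% of all genes called higher and 2.08% lower. Csf1, a growth factor of microglia, rose (7.14 ± 5.94 to 230.5 ± 139.9 CPM). Ifngr1, a chain of the interferon gamma receptor, fell from 1115 ± 101 to 424 ± 101. Tgfbr1, a receptor of transforming growth factor beta, fell from 1526 ± 268 to 745 ± 201 (log2 fold change -1.11 ± 0.23, SE, edgeR adjusted p = 0.01001). In remyelination Csf1 rose and Ifngr1 fell, beside 2.51% of all genes called higher and 0.605% lower. Of 13 tested homeostatic microglia genes other than Sall1, 1 rose and 9 fell in demyelination, and 0 rose and 8 fell in remyelination, where of all tested genes 3.08% rose and 2.08% fell at the first stage and 2.51% and 0.605% at the second. The gene that rose was Sparc, a matrix protein, which is named here after its value was seen. Tmem119, a microglial surface protein, fell from 3692 ± 774 to 496 ± 203 CPM in demyelination and Selplg, a selectin ligand, from 5504 ± 310 to 1445 ± 265. The list's median log2 fold change was -1.28 and -0.82 at the 2 stages. Of 8 tested genes known as targets of the Mitf family, 3 rose at both stages, beside 3.08% and 2.51% of all tested genes. Ctsd, a lysosomal protease, rose from 7875 ± 1984 to 56311 ± 5025 CPM in demyelination, and Gpnmb, a lysosomal glycoprotein, from 5.05 ± 5.44 to 1677 ± 1470. Lamp1, a lysosomal membrane protein, rose from 1119 ± 379.7 to 3440.2 ± 466. After axotomy, edgeR called 0 genes of these lists on day 3 and on day 14.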

How the data were processed

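The deposited table holds raw read counts for each gene in each well; per the submitters' processing notes the authors aligned reads with STAR 2.5.2b and counted them with featureCounts 1.5.1 on GRCm38. The annotation release and strand setting are not stated, and reads of overlapping or antisense genes cannot be told apart. Wells were matched to samples by title (1920 of 1920) and kept with at least 20000 gene counts, 500 detected genes, under 25% mitochondrial and under 50% spike-in counts. None of the 20 negative wells passed. Counts of kept cells were summed by mouse and group (60 pairs of sums within groups, 0 identical). Sums were tested with edgeR 4.0.16 (TMM, minimum count 10, minimum total 15, robust quasi-likelihood test, Benjamini-Hochberg over all tested genes, threshold 0.05), with the 6 regions, the axotomy family and the cuprizone family fitted apart; the script was tested on simulated data. DESeq2 1.42.0 and limma 3.58.1 were alternatives, beside other scalings, filters, thinning and leaving out each mouse. Replicate numbers were not used as a block, because the labels do not say that a number names a mouse. The design text says that the regions share mice, and all 24 region sums correlated best with their own number. Correlations between region sums of the same number were weak, at -0.00372 to 0.0454. In the axotomy and cuprizone families, 5 of 12 and 8 of 12 sums correlated best with their own number. The main region tests thus leave out any such pairing. The fit with the block was an alternative. The labels give 4 replicates a group and the design text 3 to 4 mice, so if replicates shared a mouse p-values would be too small. Named were all 9 factors in every comparison and, of the other lists, called genes, at most 5 per list by adjusted p. The genes most like Mef2c over the sums are not reported here. Members and lists were chosen with earlier results of these data known. Shares of wells cover counting error only.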

Additional observations from a re-analysis of the deposited data

Results flagged for a closer look

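In 7 of 90 sets of 4 mice (9 factors in 10 groups), 1 mouse stood apart from the other 3 by Dixon's criterion, which chance meets in about 1 of 20 sets. Sall1 was at 717 CPM in cerebellum mouse 4, where the others read 438 to 450.1. Maf was at 115 in corpus callosum mouse 1 (others 267 to 296) and Spi1 at 205 in corpus callosum mouse 2 (others 383 to 413). Irf8 was at 409.8 in hippocampus mouse 1 (others 656 to 678), and Mef2c at 871 in facial nucleus mouse 3 (others 605 to 644). Bhlhe40 was at 3.93 in cortex mouse 1 (others 0) and at 31.5 in cerebellum mouse 4 (others 0 to 1.17).

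Over the 20 wells labelled negative, 5 factors had more than the 3 reads set as the mark for this flag. There were 6 of Sall1, 4 of Maf, 10 of Irf8, 13 of Mef2a and 15 of Mef2c. These wells held a median of 524.5 gene counts, and where their reads came from was not tested.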

How the results depend on the processing

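Over all comparisons, 211 counts of called factors under an alternative stayed within 1.5 times the value reported and 22 did not. In demyelination against corpus callosum, 2 factors were reported; DESeq2 called 4 (Mitf, Bhlhe40, Mef2a and Sall1), limma on mean log values per cell called 6, and 1 fit of all 10 groups called 1 (Sall1). Leaving out 1 mouse gave 1 to 2. In remyelination against corpus callosum, 1 was reported. DESeq2, RLE scaling, upper-quartile scaling, thinned cells, no cell filter, only the 2 groups and the replicate block each gave 2, with Sall1 added, and limma gave 8. There limma also turned the sign of Spi1 (-1.60), Irf8 (-1.42), Mef2c (-2.49) and Runx1 (-1.49). That value averages log levels over cells, in which a cell without a read weighs as much as any other. DESeq2 called 1 factor in cortex against hippocampus (Bhlhe40, with reads in 1 cortex cell). It called 1 in the difference between demyelination and day 3 effects (Sall1), where limma called 2. Limma called 1 on day 3 after axotomy (Maf, lower) and 1 between remyelination and demyelination (Bhlhe40, lower). With the replicate number as a block, 2 factors were called in demyelination and 0 among regions. RLE scaling moved the median of all genes in demyelination from -0.33 to -0.59 and the share of calls that were higher from 59.7% to 51.3%, with Sall1 at a log2 fold change of -2.01. In 1 fit of all 10 groups, which tests another set of genes with another estimate of the spread, these values were -1.57, 37.2% and -1.72. Over the whole table DESeq2 called 1945 genes there, against 725. Of single-factor values, 2055 stayed on their side of the threshold, 25 newly passed, 8 no longer passed and 4 reversed with a call. Among the 2055, 158 log2 fold changes turned sign with no call on either side, such as, with limma, Irf8 on day 3 after axotomy (0.11 to -1.10) and Spi1 (0.43 to -0.47) and Irf8 (0.42 to -0.35) in demyelination.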

Other observations

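Among the 6 untreated regions, where 0 of the 9 factors were called, edgeR called 3 of 13 tested homeostatic microglia genes, beside 0.1% of all tested genes: Cst3, a protease inhibitor (adjusted p = 2.3e-06), Sparc, a matrix protein (2.38e-05), and P2ry12, a purine receptor (0.00122). Of the 10 tested genes known as targets of the Mitf family, 1 was called, Ctsd (edgeR adjusted p = 0.0123). The test spans several plates, so region and plate cannot be told apart in these calls. Between regions on the same plate, edgeR called 0.0% of all genes in cortex against hippocampus. It called 0.00437% in cerebellum against facial nucleus and 0.0% in spinal cord against corpus callosum.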
